A study of Mus musculus with 12 samples.

Results

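Messenger RNA of 9 serotonin receptor genes was examined in the brainstem (medulla and pons) of 12 outbred CFW mice at P15. The genes were Htr1a, Htr1b, Htr1d, Htr2a, Htr2c, Htr3a, Htr4, Htr5a and Htr7, chosen by symbol as 9 of the 55418 genes of the count table. All 9 had enough counts to be tested in every comparison. Pups received morphine (morphine sulfate pentahydrate, 15 mg/kg, s.c.) or saline 2 times daily from P1 through P14, and tissue was taken 16 h after the last injection, during spontaneous withdrawal. Females and males of each treatment made up 4 groups, and each group held 3 mice with 1 library per mouse, and repeated injection was common to all. Pups of a litter were divided between the treatments, but the labels do not name the dam, so litter was not modeled.

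Serotonin receptors pass the signal of the monoamine serotonin, which in the brainstem is made by the raphe nuclei and acts on breathing, arousal, motor output and pain transmission. The HTR1 and HTR5 receptors couple mainly to inhibitory Gi/o proteins, the HTR2 receptors to Gq and phospholipase C, HTR4 and HTR7 to Gs and adenylyl cyclase, while HTR3 receptors are ion channels. The comparison asked whether neonatal morphine followed by withdrawal was accompanied by another level of these mRNAs, and whether females and males differed in this.

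Promoter sequence is shown for 3 of the members whose levels rose and fell together most closely across mice, as described further on. Each line gives up to 150 bases directly upstream of the gene on GRCm38.p6, 5′ to 3′ on the strand of the gene, with capitals marking a CCAAT box (CCAAT, or ATTGG where it lies on the other strand) or a GC box (GGGCGG, or CCGCCC on the other strand).
Htr2c (chrX:146962363-146962512, + strand): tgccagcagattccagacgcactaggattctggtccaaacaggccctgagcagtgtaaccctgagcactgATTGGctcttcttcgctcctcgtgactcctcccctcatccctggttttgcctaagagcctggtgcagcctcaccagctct
Htr1b (chr9:81633833-81633982, - strand): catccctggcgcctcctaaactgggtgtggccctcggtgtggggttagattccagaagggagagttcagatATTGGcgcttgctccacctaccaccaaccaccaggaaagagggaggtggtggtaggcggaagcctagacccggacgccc
Htr2a (chr14:74640724-74640839, + strand): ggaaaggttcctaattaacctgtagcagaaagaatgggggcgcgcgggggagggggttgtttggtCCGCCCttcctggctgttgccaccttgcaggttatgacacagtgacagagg

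The RefSeq start of Htr2a lies 34 bases inside the GENCODE gene and that of Htr7, another such member, 147 bases inside it. The line of Htr2a therefore holds 116 bases, and none is shown for Htr7. In the window of 300 bases around the RefSeq start (250 before to 50 after), GC content was 56.3% for Htr2c, 53.3% for Htr1b, 52.0% for Htr2a and 81.0% for Htr7, the last of these above 99.3% of all promoters. Promoters were found in RefSeq for 7 members, with 8 start sites in all. CCAAT was present on either strand in 3 of these 8 windows and in 37.4% of 32851 mouse promoters, GGGCGG in 4 of 8 and in 35.7%, and TATAAA in 0 of 8 and in 13.6%. The motifs do not overlap in the lines shown, and a match here describes letters only.

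Library totals lay between 27850565 and 48097947 counts. The library labelled morphine male 6 did not match its sex label: Xist, which is transcribed from the inactive X chromosome, was at 379.9 CPM against 0.40 to 2.71 in the other 5 male libraries, while the Y-linked Ddx3y was at 12.8 CPM against 117.8 to 198.8. In the 6 female libraries Xist was at 546.8 to 970.5 CPM and Ddx3y at 0.058 to 0.73 CPM, so this library lay between the sexes, and the cause was not tested. Saline male 3 stood apart from the other males over many genes, and without it 5341 genes were called between morphine and saline males in place of 543. Calls in males are therefore also given without 1 or the other of these libraries. Of the 8 hindbrain markers all were detected in every mouse, whereas only 1 of 8 spinal cord markers passed the filter and their sum was 0.775 to 7.75 CPM. The defining serotonergic genes Tph2 (20.2 to 41.7 CPM) and Slc6a4 (12.2 to 25.1 CPM) were present in all mice.

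Htr2c was by far the most abundant of the 9 mRNAs. On the scale of CPM (counts scaled to a common library size) per kb of merged exon, its level was 26.5 ± 4.60 (mean ± SD, n = 12 mice), which was 47.2% of the summed level of the 9 genes. Htr7 followed at 8.91 ± 1.03, then Htr1b at 5.74 ± 0.752, Htr2a at 5.31 ± 0.786 and Htr1a at 4.70 ± 0.327. Htr5a was lower at 2.25 ± 0.219. The 3 lowest were Htr1d at 1.09 ± 0.140, Htr3a at 0.923 ± 0.208 and Htr4 at 0.680 ± 0.126.

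**Figure D1:**
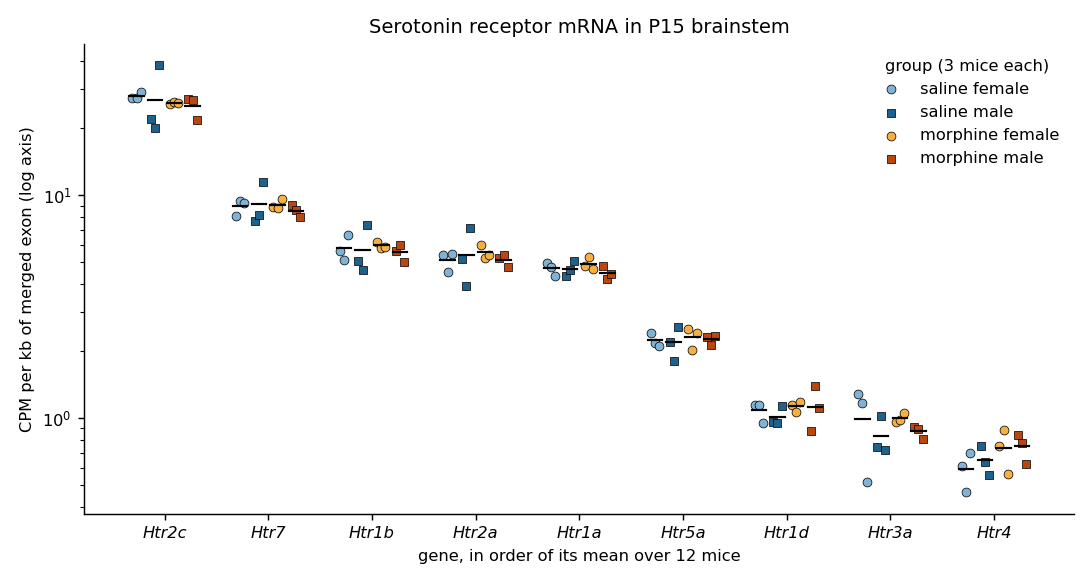
Level of each serotonin receptor mRNA in CPM per kb of merged exon on a log axis, with 1 point per mouse, colors and symbols for the 4 groups of 3 mice, and a line at each group mean. Htr2c lies above every other gene in all 12 mice, from 20.1 to 38.3, with its highest point in a saline male.

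Some steps of this order were clear in every mouse and others were not. Htr2c exceeded Htr7 in 12 of 12 mice, with a ratio of 2.48 to 3.37, and Htr7 exceeded Htr1b in 12 of 12. Htr1a exceeded Htr5a, and Htr5a exceeded Htr1d, in 12 of 12 mice as well. In contrast, the neighbors Htr1b and Htr2a (11 of 12 mice), Htr2a and Htr1a (9 of 12), Htr1d and Htr3a (8 of 12), and Htr3a and Htr4 (10 of 12) had overlapping ranges, so that their levels were not apart beyond the spread between mice, although within a mouse the first of each pair was the higher in the number given. The ranks stayed as given with the longest transcript as the length or with scaling by total counts, although the length itself matters for Htr2c: per kb of its longest transcript (4883 bp, against 9328 bp of merged exons) its mean level was 50.6 CPM per kb. In bulk tissue, fewer cells expressing a receptor and less mRNA per cell cannot be told apart.

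The spread between mice was set partly by depth for the low genes. Htr3a had 38 to 97 counts per library, and its CV of CPM over the 12 mice was 22.6% where counting error alone gives 12.4%. Htr4 (75 to 151 counts) and Htr1d (94 to 139 counts) had CVs of 18.5% and 12.8% against counting errors of 9.40% and 9.24%. For Htr2c, with 6601 to 11675 counts, counting error was 1.10% and the CV was 17.4%. Nearly all of its spread thus lay beyond counting error. With 1 library per mouse, differences between mice and between preparations cannot be told apart. Htr1a was the steadiest of the 9 between mice, with a CV of 6.95% and a highest level 1.26 times its lowest.

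None of the 9 genes was differentially expressed (DE) between morphine and saline mice. A gene was called DE when edgeR's quasi-likelihood test gave p under 0.05 before adjustment and its log2 fold change lay beyond 0.26 in either direction. In the sex-combined comparison of 6 morphine with 6 saline mice 0 of 9 members passed, against 1.19% of the 18608 genes tested. The count was also 0 of 9 in females, against 1.81% of all genes, and 0 of 9 in males, against 2.99%. In these comparisons 0 of 9 members had an unadjusted p under 0.05, and the Wald test of DESeq2 called 0 of 9 as well. The members' median log2 fold change was 0.03 sex-combined, 0.05 in females and -0.05 in males, beside -0.02, -0.01 and -0.06 for all genes tested. A count of 0 among 9 genes is close to these background shares.

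**Figure D2:**
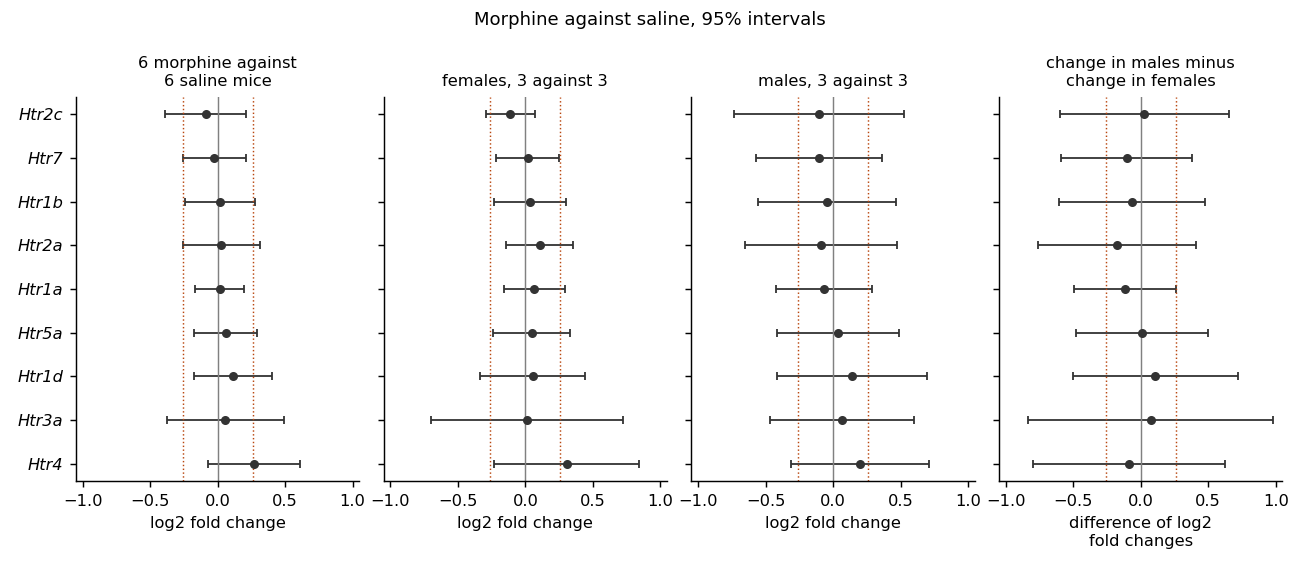
Log2 fold change of morphine over saline for the 9 genes, with 95% intervals from edgeR's quasi-likelihood fits, sex-combined (n = 6 against 6), in females and in males (n = 3 against 3), and the difference between the sexes. All intervals include 0, and the dotted lines mark the threshold of 0.26 in either direction.

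The precision of this differed between genes. The sex-combined estimate was narrowest for Htr1a, at 0.02 with a 95% interval from -0.17 to 0.20, which lies inside the threshold of 0.26 on both sides. The intervals of Htr7 (-0.26 to 0.21) and Htr1b (-0.24 to 0.27) only just reached the threshold. Those of Htr3a (-0.38 to 0.49), Htr4 (-0.07 to 0.61) and Htr2c (-0.39 to 0.21) did not exclude changes beyond it. In males, with 3 mice against 3, the intervals were wider and reached -0.73 to 0.53 for Htr2c.

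Among the Gi/o-coupled receptors, Htr1a (chr13:105443639-105448122, a gene of 1 exon) encodes the somatodendritic autoreceptor of serotonergic neurons, which is also found on their targets. Its level was 19.4 to 22.8 CPM in saline mice, with a median of 21.0, and 18.8 to 23.7 CPM in morphine mice, with a median of 21.3, so the ranges overlapped nearly completely. Htr1b (chr9:81628291-81633828), whose product is a presynaptic autoreceptor and heteroreceptor, was at 21.9 to 34.7 CPM in saline and 23.7 to 29.2 CPM in morphine mice. Its log2 fold change was 0.01 (SE 0.12). An exon of the antisense gene D430036J16Rik overlaps Htr1b, and without a stated strand setting their reads cannot be told apart there, but that gene was at only 0.030 to 1.61 CPM.

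Htr1d (chr4:136423524-136444398), another presynaptic receptor, was at 2.79 to 4.46 CPM over the 12 mice. Its log2 fold change was 0.11 (SE 0.14, unadjusted p of 0.41, adjusted p = 0.9999 in edgeR's quasi-likelihood test), and both the lowest and the highest of the 12 values were in morphine males. Htr5a (chr5:27842149-27855088) was at 9.74 to 13.8 CPM in saline and 10.9 to 13.5 CPM in morphine mice, and its log2 fold change was 0.06 (SE 0.11). These 4 genes overlapped between treatments in both sexes.

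Of the Gq-coupled receptors, Htr2a (chr14:74640840-74709494) encodes a receptor that excites motor and respiratory neurons. Its level in females was 30.3, 25.5 and 30.5 CPM under saline and 33.6, 29.3 and 30.4 CPM under morphine. In males it was 28.9, 22.0 and 40.2 CPM under saline and 29.3, 30.4 and 26.8 CPM under morphine. Saline male 3 was the highest and saline male 2 the lowest of the 12 mice, and the sex-combined log2 fold change was 0.03 (SE 0.13).

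Htr2c lies on the X chromosome (chrX:146962513-147197277), hosts several miRNAs and a snoRNA in its introns, and encodes a receptor whose mRNA is edited by ADAR enzymes. In females its level was 254.5, 254.6 and 270.4 CPM under saline and 238.8, 244.5 and 242.2 CPM under morphine. The 3 morphine females were thus all below the 3 saline females, and Htr2c was the 1 member of 9 whose levels did not overlap, where 5.65% of all genes did not overlap in females. The log2 fold change was -0.11 (SE 0.08, unadjusted p of 0.20, adjusted p = 0.9999, edgeR's quasi-likelihood test), so the difference was small and did not pass. No member separated in the sex-combined comparison (0.043% of all genes) or in males (9.1%). For Htr2c, 0 of the 6 morphine mice were above the median of the saline mice, 254.6 CPM.

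In males, Htr2c turned on 1 mouse. Its level was 205.7, 187.7 and 357.7 CPM in saline males and 252.4, 250.6 and 202.7 CPM in the libraries labelled morphine male 4, 5 and 6. Saline male 3, at 357.7 CPM, was the highest of the 12 mice and the other saline males were among the 3 lowest. The log2 fold change in males was -0.10 (SE 0.27). Without saline male 3 it was 0.29 (unadjusted p of 0.032, adjusted p = 0.13 in edgeR's quasi-likelihood test), which met the DE thresholds, but without that mouse 28.6% of all genes did so. Without the library labelled morphine male 6 it was -0.02.

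**Figure D3:**
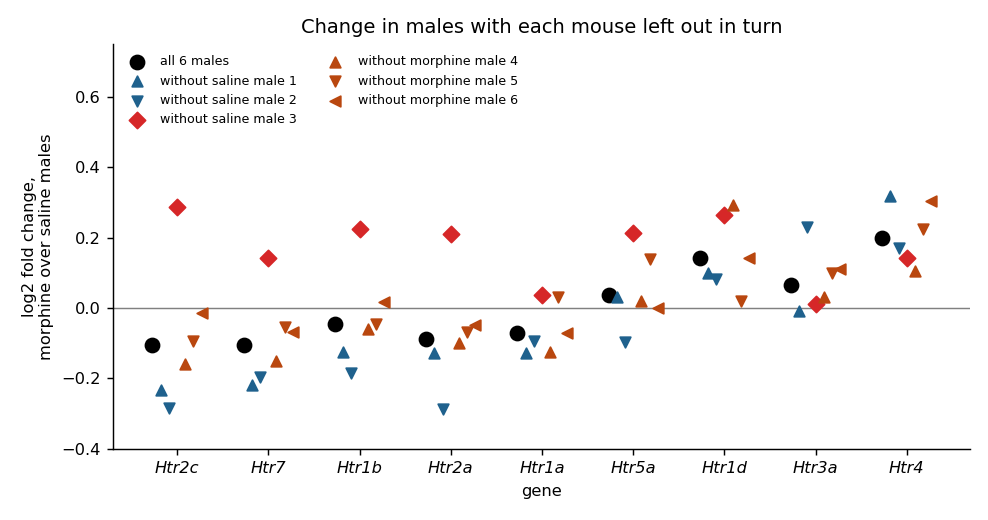
Log2 fold change of morphine over saline in males for each gene, with all 6 males (black circles) and with each male left out in turn. Without saline male 3 (red diamonds) Htr2c moves from -0.10 to 0.29, and Htr7, Htr1b, Htr2a and Htr1a also turn from negative to positive.

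Saline male 3 moved several members at once. Htr7 was 39.2 CPM in that mouse and 26.1 to 32.7 CPM in the other 11, Htr1b was 34.7 against 21.9 to 31.2 CPM, and Htr5a was 13.8 against 9.74 to 13.5 CPM. In males without it, 9 of 9 members had a positive log2 fold change, from 0.01 for Htr3a to 0.29 for Htr2c, where 4 of 9 were positive with it. The whole table moved the same way. With saline male 3, 37.6% of all genes tested were positive and their median was -0.06, and without it the median was 0.03. The summed level of 10 neuron markers was also highest in saline male 3, at 7533 CPM with a range of 5865 to 7533 CPM over the 12 mice. The next highest neuron sums were in saline female 4 and morphine female 3, whose Htr2c levels were 254.5 and 242.2 CPM. Other lists also had an extreme in saline male 3. Its sums of cortex and hippocampus markers (93.6 CPM) and of meningeal fibroblast markers (205.4 CPM) were the highest. Its sum of 10 genes whose products edit, chaperone, anchor or regulate the receptors was the lowest, at 665.7 CPM. The part of tissue content in these values was not tested. When total counts set the scale, the median over all genes in males went from -0.06 to 0.06, and the 5 negative members went to between 0.02 and 0.08.

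Htr2c is known for its abundance in the choroid plexus epithelium, which can enter a brainstem dissection in varying amounts. Ttr, the defining transcript of that epithelium, ranged from 1.28 CPM in saline female 4 to 773.6 CPM in the library labelled morphine male 5. Htr2c was at 254.5 CPM in the mouse with the least Ttr and at 250.6 CPM in the mouse with the most, and Folr1, another choroid plexus gene, was at 0 in the former. These are the 2 extremes of Ttr, and the part of choroid plexus tissue in the level of Htr2c was not tested. The 12 choroid plexus markers summed to 1694 to 1990 CPM in saline males, 1732 to 2767 in morphine males, 1330 to 2360 in saline females and 1385 to 1491 in morphine females, most of it from Enpp2, which oligodendrocytes also express. In males 6 of 12 of these markers rose with morphine, against 2.99% of all genes called, among them Folr1 (log2 fold change 1.06) and Otx2 (1.02). Without the library labelled morphine male 6, 9 of the 12 rose, against 2.47% of all genes, and 8 of 12 without saline male 3, against 28.6%. With any other male left out the number was 1 to 3. In females 0 of the 12 were called and 0 were positive, with a median log2 fold change of -0.63. Sex-combined, 0 were called. Without saline female 6, 5 rose in females and 7 rose sex-combined. Without saline female 4, 3 fell in females.

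**Figure D4:**
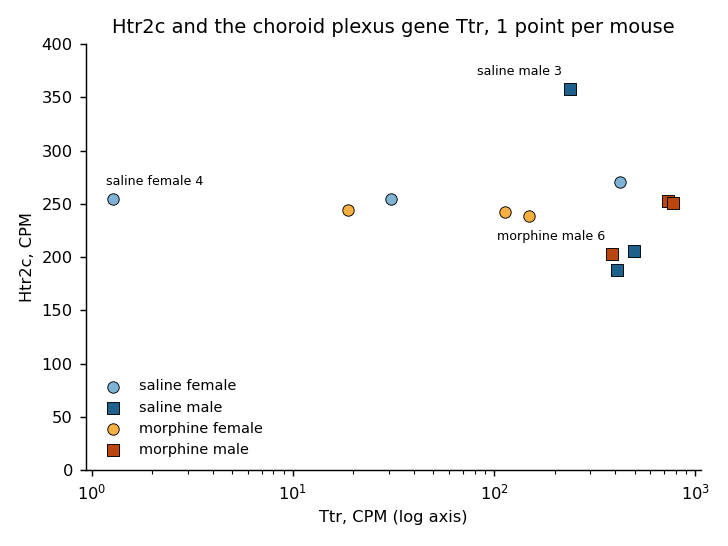
Htr2c in CPM (vertical axis, from 0) against Ttr in CPM (log axis), with 1 point per mouse in 4 groups of 3. Htr2c stays between 187.7 and 357.7 CPM while Ttr runs from 1.28 to 773.6 CPM.

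The ion channel subunit gene Htr3a (chr9:48899213-48911099) had the widest relative range. In females its level was 2.68, 2.43 and 1.08 CPM under saline and 2.00, 2.05 and 2.20 CPM under morphine. The saline females held both the highest and the lowest of the 12 values, and the females' log2 fold change was 0.01 with a 95% interval from -0.70 to 0.73. In males the level was 1.55, 2.12 and 1.501 CPM under saline and 1.90, 1.87 and 1.68 CPM under morphine.

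Of the Gs-coupled receptors, Htr4 had the largest estimate of the 9 and the smallest p. HTR4 raises cAMP and is known for stimulating respiratory rhythm neurons. Its gene lies at chr18:62324204-62496577. In females its level was 3.00, 2.28 and 3.43 CPM under saline and 3.69, 4.35 and 2.75 CPM under morphine. In males it was 3.70, 3.11 and 2.73 CPM under saline and 4.13, 3.80 and 3.07 CPM under morphine. Of the 6 morphine mice, 5 were above the saline median, as was also so for Htr1b, Htr1d and Htr3a, and the ranges of Htr4 overlapped in both sexes. The sex-combined log2 fold change was 0.27 (SE 0.16, unadjusted p of 0.11, adjusted p = 0.9999 in edgeR's quasi-likelihood test), and it was 0.30 (SE 0.24) in females and 0.20 (SE 0.22) in males. With 1 mouse left out it kept its sign and lay between 0.19 and 0.33 sex-combined, 0.14 and 0.46 in females, and 0.10 and 0.32 in males. The lowest of these were without morphine female 2, in the first 2 comparisons, and without morphine male 4 in males.

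Htr7 (chr19:35958734-36057507), the second Gs-coupled gene and the next most abundant after Htr2c, was at 26.1 to 39.2 CPM in saline mice, with a median of 29.5, and at 27.0 to 32.7 CPM in morphine mice, with a median of 29.9. Its log2 fold change was -0.03 (SE 0.11) sex-combined, 0.02 (SE 0.11) in females and -0.11 (SE 0.20) in males.

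The change with morphine did not pass a test of difference between females and males for any member. In the interaction of treatment and sex, 0 of 9 members were called, against 2.94% of all genes, with differences of the log2 fold change from -0.18 for Htr2a to 0.11 for Htr1d and a smallest unadjusted p of 0.51. DESeq2 called 0 of 9 too. The widest interval was that of Htr3a, from -0.84 to 0.98. Without saline male 3 the change of Htr2c was higher in males than in females by 0.36 (unadjusted p of 0.019, adjusted p = 0.12, edgeR's quasi-likelihood test), beside 24.1% of all genes called at that setting. Without the library labelled morphine male 6 this difference was 0.12 and 0 of 9 members were called.

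No difference in these mRNAs passed between females and males over both treatments. Between the sexes 0 of 9 members were called, against 3.94% of all genes, with log2 fold changes of female over male from -0.07 for Htr4 to 0.23 for Htr3a (95% interval -0.20 to 0.67). The smallest unadjusted p was 0.27, and DESeq2 called 0 of 9. The X-linked Htr2c was at 250.9 ± 11.6 CPM in females and 242.8 ± 62.2 CPM in males (SD, n = 6 each), with a log2 fold change of 0.06 (SE 0.14). That value was 0.01 without the library labelled morphine male 6. Htr3a met the DE thresholds between the sexes when saline female 6, its lowest library, was left out (log2 fold change 0.34), where 3.69% of all genes did.

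Across the 12 mice, some members rose and fell together. Of 36 pairs, 25 had a positive Pearson's r of log2 CPM, with a median of 0.26 and a range from -0.43 to 0.91. After Benjamini-Hochberg adjustment over the 36 pairs, 6 had an adjusted p under 0.05 for r in permutation tests (two-sided, 100000 resamples), and 1 of them also for Spearman's rho. That pair was Htr1b and Htr2a, with r = 0.908 (permutation p = 1e-04, adjusted 0.00324) and rho = 0.951 (permutation p = 2e-05, adjusted 0.00072). Leaving out the 2 mice farthest from the median of Htr1b gave r = 0.77, and leaving out saline male 3 gave 0.85.

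**Figure D5:**
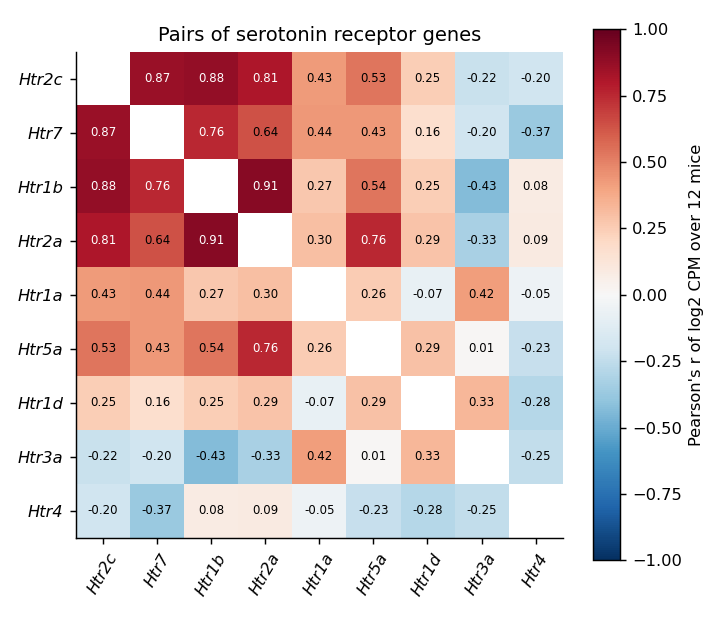
Pearson's r of log2 CPM over the 12 mice for the 36 pairs of genes, in order of their mean level, from blue (-1) to red (1). Htr2c, Htr7, Htr1b and Htr2a form a block of values from 0.64 to 0.91, and Htr3a and Htr4 have low or negative values with most of the others.

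The other 5 pairs with an adjusted p under 0.05 for r were Htr1b and Htr2c (0.88), Htr2c and Htr7 (0.87), Htr2a and Htr2c (0.81), Htr1b and Htr7 (0.76), and Htr2a and Htr5a (0.76). Their Spearman values had adjusted permutation p from 0.287 to 0.512. Without the 2 farthest mice, r fell to 0.26 for Htr2a and Htr2c and to 0.34 for Htr2a and Htr5a. Leaving out the farthest mice also narrows the range, so the fall cannot show whether these relations rested on them. Without saline male 3, r was 0.63 for Htr2a and Htr2c and 0.70 for Htr2a and Htr5a. High correlations with a member were common among all genes for some members and rare for others. The share of other genes tested with r over 0.6 was 23.3% for Htr2c and 20.7% for Htr1b. It was 19.4% for Htr7 and 14.9% for Htr2a. For Htr5a it was 3.13%, for Htr3a 2.12%, for Htr1a 2.04%, for Htr4 1.60% and for Htr1d 0.58%. Of 18607 genes, 948 followed Htr2c at least as closely as Htr1b did. For Htr2a, 24 genes followed it as closely as Htr1b did.

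The genes whose log2 CPM was most like that of each member over the 12 mice were picked as the highest of 18608, so their r is a description. For Htr2c they were Kif2a (0.99) and Cul3 (0.99), for Htr7 Gtf2h2 (0.96) and Actr3 (0.94), for Htr1b Zfp655 (0.98) and Dzank1 (0.97), and for Htr2a Mrpl1 (0.94) and Fstl5 (0.94). Htr5a was closest to Tusc3 (0.89) and Zfp92 (0.88), Htr1a to Il17d (0.87) and Klf10 (0.87), and Htr1d to 6330418K02Rik (0.81) and Gm48606 (0.79). For Htr3a they were Emp2 (0.89) and Barx2 (0.88), and for Htr4 Gm15893 (0.91) and Cemip2 (0.87). Kif2a, a kinesin gene, was also highest in saline male 3, at 188.4 CPM against 102.3 to 145.2 CPM in the other 11 mice.

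The remaining serotonin receptor genes of the table were lower, with 1 exception. Htr5b, which encodes a receptor in mice that has no functional human counterpart, was at 2.29 to 4.57 CPM per kb and so above Htr5a in every mouse except the library labelled morphine male 4. In females it was at 7.34, 8.84 and 6.14 CPM under saline and 6.67, 6.83 and 6.53 CPM under morphine. In males it was at 7.36, 7.55 and 7.29 CPM under saline and 4.43, 6.46 and 6.08 CPM under morphine, and these did not overlap, as held for 9.1% of all genes. The sex-combined log2 fold change was -0.26 (SE 0.13, unadjusted p of 0.058, adjusted p = 0.9999 in edgeR's quasi-likelihood test), and it was -0.40 (SE 0.20, unadjusted p of 0.089) in males. In males it was -0.37 without saline male 3 and -0.46 without the library labelled morphine male 6, and it met the DE thresholds in neither. Htr1f and Htr6 were at 0.797 to 1.67 and 0.525 to 1.46 CPM. With all mice included, 0 of the 3 tested genes was called in any comparison. Leaving out saline female 6 gave 1 of these 3 called lower sex-combined. Leaving out saline male 3 gave 1 called lower in males, where 28.6% of all genes were called. Htr2b (0 to 9 counts) and Htr3b (1 to 14 counts) were below the filter.

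With all mice included, a list of genes expressed in serotonergic neurons gave no DE gene. Of 12 genes for serotonin synthesis, transport, breakdown and neuron identity, 0 were called in the sex-combined, female or male comparison. The median log2 fold change was 0.04, 0.20 and -0.16. Some of the 12, such as those for vesicular transport and breakdown of monoamines, are not confined to serotonergic neurons. The summed level of the 12 was 144.9 to 215.4 CPM in saline and 160.0 to 220.8 CPM in morphine mice. In females, 3 of the 12 were called higher without saline female 4 and 1 higher without morphine female 2. In males, 1 was called lower without saline male 3. In the interaction 0 were called and 0 of 12 were positive, with a median of -0.25, and without saline male 3, 2 were called lower.

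Downstream of the receptors, 26 effector genes were read, among them those of G proteins, adenylyl cyclases, phospholipases and potassium channels. In males, 2 of the 26 were called, against 2.99% of all genes. Kcnj6, a subunit of the potassium channel that Gi/o-coupled receptors open, rose by 0.49 (SE 0.16) on the log2 scale, from 5.66, 5.12 and 5.33 CPM in saline males to 7.73, 7.31 and 7.65 CPM in morphine males, with no overlap, where 9.1% of all genes did not overlap. Its log2 fold change was 0.52 without saline male 3, which met the DE thresholds, and 0.47 without the library labelled morphine male 6 (unadjusted p of 0.070), which did not, nor did the values without saline male 2 (0.44) or morphine male 4 (0.47). Granule cells of the cerebellum also express Kcnj6, 3 of 11 cerebellar markers were called in males (Gabra6 at a log2 fold change of 1.35; 4 without either of the named libraries and 1 without saline male 2), the 11 markers summed to 195.1 to 286.9 CPM in saline males and 212.4 to 340.5 CPM in morphine males, and their part in this value was not tested. For Kcnj6 the interaction of treatment and sex was 0.68 (SE 0.23, unadjusted p of 0.013, adjusted p = 0.98 in edgeR's quasi-likelihood test). Gnas, which encodes the Gs alpha subunit, fell by 0.33 (SE 0.14) on the log2 scale in males, and of the 6 males only saline male 1 could be left out with the DE thresholds still met. It was -0.22 without saline male 3 and -0.34 without the library labelled morphine male 6. Of 10 genes whose products edit, chaperone, anchor or regulate the receptors, Deaf1, a transcription factor that acts on Htr1a, was called in females (log2 fold change 0.38, unadjusted p of 0.04998), where 1.81% of all genes were, and 0 were called in males or sex-combined. In females 0 of the 10 were called without saline female 5, saline female 6, morphine female 1 or morphine female 3. Adjustment over all genes left none of the genes in these lists under 0.05 by the same test.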

How the data were processed

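Brainstem RNA of 12 mice (3 per sex and treatment) was sequenced by the authors as poly-A, 100 bp single-end reads on 1 lane. After trimming (Trimmomatic) and alignment to mm10 (STAR), they counted reads over Ensembl GRCm38 exons with featureCounts. The strand setting is not given in the sources used here. The deposited values are whole-number counts whose totals differ between libraries, so they were treated as raw counts although the study calls them normalized. The labels give brainstem as the tissue, while their extraction text names spinal cords. No dam is given, so none was modeled. Nothing in the labels says how litters map to replicates, and p-values measure the spread between these mice.

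Genes were kept by filterByExpr and tested over the whole table with the quasi-likelihood test of edgeR 4.0.16 (R 4.3.3, TMM normalization). Sex was a covariate in the sex-combined fit. The females, the males, the interaction and the sexes were tested likewise. DE thresholds were those of the study, with Benjamini-Hochberg adjusted p beside them. The test was not, since the study names exactTest of edgeR. CPM used TMM factors over the 12 libraries, and logs a prior count of 2. Positions and lengths came from GENCODE M21. The fits were tested on simulated data. Alternatives were the Wald test of DESeq2 1.42.0, its size factors, scaling by total counts, other filters, a fit without sex, a replicate block, and each mouse left out. For morphine against saline exactTest was also run, and for each sex a fit of all 12 mice. Leaving out mice for the genes of the other lists was chosen after seeing the data.

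The members, the gene lists and the rule for named genes were chosen with earlier results of these data known. The rule names every serotonin receptor gene, up to 4 called genes per other list, and the 2 genes most like each member. Lists of cortex and hippocampus, motor neuron, meningeal fibroblast, astrocyte, oligodendrocyte and microglia markers were also read. 1 called effector gene is not reported here.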

Additional observations from a re-analysis of the deposited data

Results flagged for a closer look

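In 28 groups of 6 mice of 1 treatment, the highest or lowest level of a serotonin receptor gene was tested for a gap to the others, and 4 stood out. The cutoff is meant to flag about 1 in 20 groups of independent, normally distributed values. These groups pool both sexes and share the same 12 libraries, so the number that chance gives here is not known. Htr2c was at 202.7 CPM in the library labelled morphine male 6, below the 238.8 to 252.4 CPM of the other 5 morphine mice. Htr1f was also lowest in that library, at 0.797 CPM against 1.14 to 1.28 CPM. This is the library whose Xist level did not match its label. Htr5b was at 4.43 CPM in the library labelled morphine male 4, against 6.08 to 6.83 CPM in the other 5. Htr3b was at 0.425 CPM in saline female 5 against 0.057 to 0.179 CPM in the other saline mice, on at most 14 counts.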

How the results depend on the processing

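With every mouse included, 0 of 9 members were called in each comparison under DESeq2's size factors, the Wald test of DESeq2, scaling by total counts, other filters and, where run, without the covariate. Signs did change for small values. When total counts set the scale, the median over all genes went from -0.06 to 0.06 in males and from -0.03 to 0.07 in the interaction. Under it the value was 0.021 for Htr7 sex-combined, 0.056, 0.081, 0.038, 0.023 and 0.020 for Htr1a, Htr1b, Htr2a, Htr2c and Htr7 in males, and 0.039 and 0.012 for Htr1b and Htr4 in the interaction. The interaction of Htr5a was -0.015 with DESeq2's size factors, -0.012 with its Wald test and -0.0061 with no filter. The cause was not tested.
With 1 mouse left out, the number called was 0 to 1 in males, in the interaction and between the sexes, and 0 in the sex-combined and female comparisons. The log2 fold changes whose sign turned had these ranges. Sex-combined, they were Htr1a -0.030 to 0.041, Htr1b -0.044 to 0.11, Htr2a -0.052 to 0.14, Htr2c -0.17 to 0.051, Htr3a -0.10 to 0.16 and Htr7 -0.073 to 0.057. In females, they were Htr1b -0.038 to 0.16, Htr1d -0.018 to 0.10, Htr3a -0.29 to 0.24, Htr5a -0.011 to 0.14 and Htr7 -0.057 to 0.063. In males, they were Htr1a -0.13 to 0.037, Htr1b -0.18 to 0.22, Htr2a -0.29 to 0.21, Htr2c -0.29 to 0.29, Htr3a -0.0091 to 0.23, Htr5a -0.10 to 0.21 and Htr7 -0.22 to 0.14. In the interaction, they were Htr1b -0.21 to 0.15, Htr1d -0.076 to 0.26, Htr2a -0.37 to 0.067, Htr2c -0.15 to 0.36, Htr3a -0.18 to 0.35, Htr4 -0.26 to 0.073, Htr5a -0.12 to 0.13 and Htr7 -0.21 to 0.087. Of female over male, they were Htr1b -0.00048 to 0.16, Htr2a -0.056 to 0.13, Htr2c -0.026 to 0.19, Htr4 -0.15 to 0.0025, Htr5a -0.018 to 0.081 and Htr7 -0.013 to 0.12.
Saline male 3 alone decided the calls of Htr2c, and it moved the number of genes called in males from 543 to 5341, in the interaction from 559 to 4695, between the sexes from 733 to 3947 and sex-combined from 221 to 458. Other mice also moved these numbers by over 1.5 times. In females 328 genes became 1482 without saline female 4, 690 without morphine female 2 and 208 without morphine female 1. Sex-combined, it was 417 without saline female 6 and 393 without morphine female 3. In males it was 347, 357, 253 and 300 without saline male 1, saline male 2, morphine male 4 and morphine male 5. In the interaction it was 952 and 856 without saline female 4 and morphine female 2, and 290 to 363 without saline female 6, saline male 1, morphine female 3, morphine male 4 or morphine male 5. Between the sexes it was 330, 405, 406 and 458 without saline male 2, saline male 1, saline female 5 and the library labelled morphine male 6. In males without saline male 3, 9 of the 26 effector genes and 6 of the 10 partner genes were called, where 28.6% of all genes were, and 0 of each without the library labelled morphine male 6. Replicate numbers are shared between saline and morphine mice of opposite sex, and the deviations of same-numbered mice correlated from -0.36 to 0.18, so the numbers were not read as pairs. With the replicate block, 0 of 9 members were called, Htr4 was 0.27 and Htr2c -0.06, and 204 genes were called in place of 221. Depth limits Htr3a, Htr4 and Htr1d the most.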

Other observations

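Marker lists not described above gave the following counts, beside 1.19% of all genes called sex-combined, 1.81% in females, 2.99% in males, 2.94% in the interaction and 3.94% between the sexes. Of 9 meningeal fibroblast markers 3 fell in females, Aldh1a2 (log2 fold change -0.88), Dcn (-0.76) and Slc6a13 (-0.75), and Dcn also fell sex-combined (-0.49). With 1 female left out, 3 to 8 of the 9 fell in females. Sex-combined, 0 to 3 of the 9 fell with 1 mouse left out. In the interaction Slc6a13 (0.84) and Aldh1a2 (0.85) were called, and between the sexes Igf2 (-0.86) and Slc6a13 (-0.49) were lower in females. Of 7 oligodendrocyte markers 2 fell in males, Cldn11 by 0.49 and Mobp by 0.42 on the log2 scale, and Cldn11 also sex-combined, by 0.29. This number was 5 in males without saline male 3, 2 without the library labelled morphine male 6 and 1 without any other male. Sex-combined, 0 to 2 fell with 1 mouse left out. Between the sexes 7 of 12 choroid plexus markers were lower in females, among them Ttr (log2 fold change -2.03), and this number was 1 to 10 with 1 mouse left out. In the interaction 1 of the 12 was called (Kl, 1.35). The cerebellar markers gave 3 of 11 higher sex-combined, 1 of 10 lower in females, 1 higher in the interaction and 1 lower in females than in males. With 1 mouse left out, 0 to 5 were called sex-combined, all higher. In females 5 were called higher without saline female 6 and 1 higher without morphine female 2. There, 1 was lower without morphine female 3, and 0 were called without any other female. Between the sexes, the single tested spinal cord marker (Hoxd8, 1.67) was higher in females and Neurod2, of 6 tested cortex and hippocampus markers, lower (-0.37). Of astrocyte markers 1 of 7 (Agt, 0.36) was called in females. There, 0 were called without saline female 5, saline female 6, morphine female 1 or morphine female 3. For morphine against saline, with all mice included, none of the following was called in females, males or sex-combined. They were 6 microglia, 7 tested motor neuron, 6 tested cortex and hippocampus, and 10 neuron markers. Of 8 hindbrain markers, Hoxb2 and Hoxb4 fell in the sex-combined comparison (-0.47 and -0.33). With 1 mouse left out, 0 to 3 of the 8 fell, and it was 0 without saline male 2, morphine female 1 or the library labelled morphine male 6. These values come from edgeR's quasi-likelihood test at the DE thresholds, and none had an adjusted p under 0.05.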
